A study of Mus musculus with 15 samples.

Results

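The subject is how 2 innate immune agonists combined in a mouse tumour: for every measured gene, whether the response to both agents together equalled, exceeded or fell short of what the responses to each agent alone would give. All 15 tumours of the series and all 17712 genes of the deposited table entered this 2 by 2 comparison, so no gene was chosen by its values. The tumours were MC38, a colon adenocarcinoma cell line of C57BL/6 mice, grown under the skin of C57BL/6 hosts and injected once they measured about 5 mm. Vehicle tumours (n = 3) received 100 µL of buffered saline with DMSO and glucose. BO-112 tumours (n = 4) received 50 µg of BO-112, DMXAA tumours (n = 4) received 100 µg of DMXAA, and combination tumours (n = 4) received both doses in the same 100 µL. All were collected 24 h later and measured as bulk tissue by stranded mRNA sequencing, so a single cell line, a single dose of each agent and a single time stand behind every value. The labels call the tumours biological replicates and give no further pairing or batch.

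BO-112 is a synthetic double-stranded RNA (poly I:C) carried on polyethylenimine. Double-stranded RNA is sensed in endosomes by TLR3 and in the cytosol by MDA5 and RIG-I, which signal through the adaptors TRIF and MAVS. DMXAA binds mouse STING, the adaptor that normally answers to cyclic dinucleotides made by cGAS, and was first known as an agent that shuts down tumour blood vessels. These routes meet at the kinase TBK1, at the transcription factor IRF3 and at NF-kB, and they switch on interferon beta, which then drives interferon-stimulated genes through its receptor. Genes induced along these routes include brakes on signalling, among them the interferon-stimulated gene Usp18 and the NF-kB target Nfkbia.

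Levels are given in CPM, the reads of a gene relative to all reads of its library after the authors' scaling. The log2 interaction takes the log2 change that DMXAA made in BO-112 tumours and subtracts the log2 change it made in vehicle tumours. It is 0 where the fold changes of the agents multiply, below 0 where the combination stood under that product and above 0 where it stood over it. The linear interaction is the combination mean minus the level expected if the 2 gains over vehicle added up, in CPM. A gene whose gains add up exactly can therefore have a log2 interaction far below 0. In bulk tissue, fewer cells of a type and less RNA per cell cannot be told apart, and this holds for every gene described here. Tumours are numbered within their group, as in DMXAA 2.

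The libraries held between 12725316 and 19660511 reads. Genes of skeletal muscle stood out in 4 libraries (vehicle 2, BO-112 1, DMXAA 1, DMXAA 3), none of them a combination tumour. The 20 measured muscle genes summed to 34.6 to 282 CPM in the vehicle group, 20.1 to 743 in the BO-112 group, 21.3 to 1251 in the DMXAA group and 22.5 to 31.6 in the combination group. DMXAA 2 stood apart from its group, with a median correlation of 0.933 to the other DMXAA tumours, against 0.966 to 0.968 for the other 3. Its 28 genes of oxidative phosphorylation summed to 6992 CPM, the upper end of a range whose highest value in the vehicle, BO-112 and combination tumours was 2510 CPM. Counts are also given without those libraries where this moved them by more than 1.5 times.

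Short promoter sequences are shown first for 6 genes: interferon beta itself (Ifnb1), the interferon-stimulated genes Isg15, Ifit1 and Cxcl10, and the neutrophil chemokines Cxcl2 and Cxcl3. Ifnb1, Isg15 and Ifit1 passed the log2 interaction test described next, and Cxcl10, Cxcl2 and Cxcl3 did not. The combination means of Cxcl2 and Cxcl3 stood at or above the additive sum, though no departure from the sum was detectable. They fell below it without DMXAA 2 and DMXAA 3. A link between promoter letters and these responses was not tested. Each line gives the bases just before the annotated start of the RefSeq gene on GRCm38.p6, read 5′ to 3′ along the gene. Capitals mark matches on either strand to an interferon-stimulated response element (searched as GAAA, any 2 bases, GAAA) or a kappa B site (GGGA, any 2 bases, TTCC). The windows are chr4:88522795-88522944 (minus strand), chr4:156200819-156200938 (minus), chr19:34640769-34640888 (plus), chr5:92348890-92349119 (minus), chr5:90903779-90903898 (plus) and chr5:90785981-90786100 (plus).
Ifnb1: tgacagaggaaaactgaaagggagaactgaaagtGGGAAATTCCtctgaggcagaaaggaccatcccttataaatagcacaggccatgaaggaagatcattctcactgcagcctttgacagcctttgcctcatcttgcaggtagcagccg
Isg15: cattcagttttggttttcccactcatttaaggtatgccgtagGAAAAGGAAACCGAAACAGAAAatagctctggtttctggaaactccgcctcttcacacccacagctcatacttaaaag
Ifit1: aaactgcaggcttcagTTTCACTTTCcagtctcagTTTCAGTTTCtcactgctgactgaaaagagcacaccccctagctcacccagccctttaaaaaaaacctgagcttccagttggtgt
Cxcl10: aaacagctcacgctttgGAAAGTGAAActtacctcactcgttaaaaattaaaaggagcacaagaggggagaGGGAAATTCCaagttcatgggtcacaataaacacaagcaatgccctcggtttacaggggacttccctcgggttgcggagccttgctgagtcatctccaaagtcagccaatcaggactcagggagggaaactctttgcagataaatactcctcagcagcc
Cxcl2: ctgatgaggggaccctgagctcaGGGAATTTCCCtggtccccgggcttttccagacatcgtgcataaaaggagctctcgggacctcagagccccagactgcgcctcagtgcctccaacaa
Cxcl3: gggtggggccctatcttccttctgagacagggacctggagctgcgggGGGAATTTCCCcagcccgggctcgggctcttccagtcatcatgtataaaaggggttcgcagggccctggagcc
Isg15 held 3 overlapping matches to the response element and Ifit1 held 2, which are read from the other strand. Cxcl10 held 1 such element and 1 kappa B match. The single run of capitals in Cxcl2 and in Cxcl3 is 1 kappa B sequence matched on both strands, and the capitals in Ifnb1 are a kappa B match. The search fixes 2 bases between the GAAA letters, so response elements with other spacing, in Ifnb1 or elsewhere, were not marked. Of the 17712 genes, 11860 had a RefSeq promoter in the table, and 3.36% of these held the response element and 1.5% the kappa B letters within 250 bases before the start. Among the genes with a negative interaction call described next, 152 of 204 had a promoter, of which 29 (19.1%) held the response element and 6 (3.95%) the kappa B letters. The gamma-activated site (TTC, any 3 bases, GAA) was in 7.16% of all promoters and in 17 of the 152 (11.2%). Among the 35 genes with a positive call, 27 had a promoter. Of these 2 (7.41%) held the response element, 2 (7.41%) the kappa B letters and 3 (11.1%) the gamma-activated site. Of the 204 genes 200 rose with BO-112 alone, and the shares among all genes raised by BO-112 were not computed. A match is a description of letters in this window and not a mapped site.

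On the log2 scale the combination departed from the product of the single-agent fold changes for 239 genes (1.35% of 17712, limma, Benjamini-Hochberg adjusted p under 0.05). It stood below the product for 204 genes (1.15%) and above it for 35 (0.198%). The 204 genes were nearly all induced ones. Of them 200 rose with BO-112 alone, 113 rose with DMXAA alone and 111 rose with each, against 1353 (7.64%) and 191 (1.08%) of all genes that rose with BO-112 and with DMXAA. In all 204 the combination mean lay above the vehicle mean, and in 203 it lay below the mean of the higher single agent. The median of the 204 genes' levels lay between 23.9 and 31.4 CPM in the vehicle tumours, 85.1 and 94.9 in the BO-112 tumours, 48.0 and 58.8 in the DMXAA tumours and 52.8 and 68.5 in the combination tumours. Of the 35 positive genes, 28 fell with BO-112 alone and 14 with DMXAA alone, against 763 (4.31%) and 30 (0.169%) of all genes, and in all 35 the combination mean lay below vehicle but above the lower single agent. These positions follow in part from the interaction call, which uses the same libraries.

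On the linear scale no gene passed the threshold (0%), with a smallest adjusted p of 0.0628. At an unadjusted p under 0.05 there were 1598 negative and 1068 positive genes. That test was unsteady across settings: 161 genes passed with the replicate numbers as a block, 130 with no weights, 72 without vehicle 2 and 287 without DMXAA 2 and DMXAA 3. In the direct comparisons, no gene passed the test between the combination and BO-112 alone (0%, smallest adjusted p 0.0839, 1690 genes at an unadjusted p under 0.05). The combination differed from DMXAA alone for 127 genes that were higher (0.717%) and 30 that were lower (0.169%), and from vehicle for 441 that were higher (2.49%) and 32 that were lower (0.181%). These comparisons share tumours with each other and with the interaction.

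The 154 genes that rose with each single agent show the shape of the response. The single-agent tumours that enter the comparison also chose these genes, so the counts are a description. The combination mean lay below the higher single agent in 141, between it and the additive sum in 8 and at or above the sum in 5. The median gene reached 53.8% of the sum and 73.1% of the higher single agent, and its log2 interaction was -2.004, beside a median of 0.02 over all genes. BO-112 was the higher single agent for 110 of them. Without DMXAA 2 and DMXAA 3 the combination mean lay at or above the sum in 0 of the 154. Without the 4 libraries high in muscle genes it did so in 3. Among the 1199 genes that rose with BO-112 and were not called with DMXAA, the combination mean was below the higher single agent in 1176, at a median of 77.2% of it. All 37 genes that rose with DMXAA and were not called with BO-112 also stood below the DMXAA level, at a median of 73.5%. Over all 17712 genes the combination mean lay below the higher single-agent mean in 14086, below the sum in 9548 and at or above it in 8164.

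**Figure D1:**
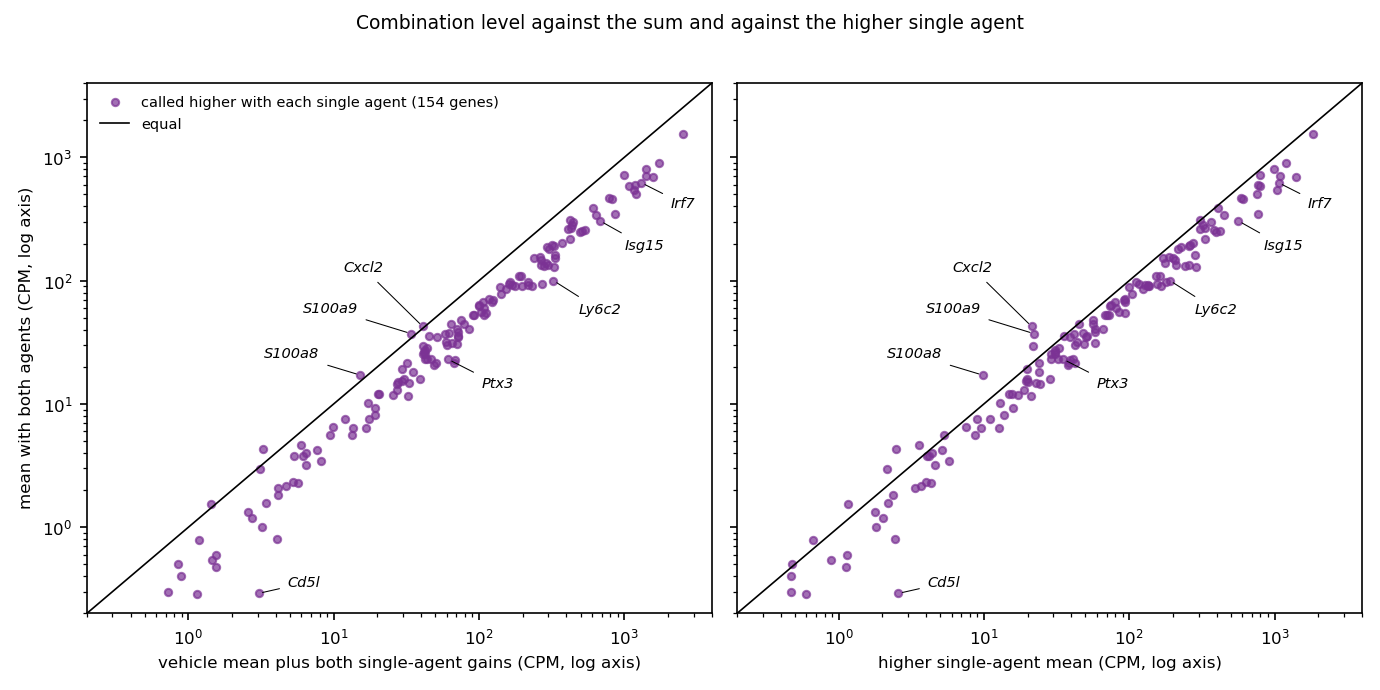
Mean level with both agents (vertical axis, CPM, log scale) against the vehicle mean plus both single-agent gains (left) and against the higher single-agent mean (right) for the 154 genes that rose with each agent; the line marks equality. Most points lie below the line in both panels: 141 of 154 stand below the higher single agent and 5, among them Cxcl2, S100a8 and S100a9, stand at or above the sum. The count at or above the sum was 0 without DMXAA 2 and DMXAA 3.

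By the response classes defined for this comparison, 4 of the 1390 induced genes were antagonised, meaning that the combination was called lower than the higher single agent. An induced gene would count as saturating with a negative call on the linear scale, and as more than additive with a positive one. No gene passed that test, so the other 1386 could not be told apart from additive. On the log2 scale 202 of the 1390 had a negative interaction call. Genes that fell were classed by that log2 scale instead, so the 2 sets of classes are not comparable. Such a gene counted as saturating with a positive log2 interaction call, and as antagonised where the combination was called higher than the lower single agent. Of the 782 genes that fell with either agent, 34 saturated in this sense, 2 were antagonised and 746 could not be told apart from multiplicative. The 34 are among the 35 genes with a positive log2 call, a number that was 1 without vehicle 1, 2 without vehicle 3, 6, 8, 11 and 17 without BO-112 1, 2, 3 and 4, 8 without DMXAA 3, 17, 13 and 6 without combination tumours 2, 3 and 4, 58 without vehicle 2, 81 without DMXAA 2 and 0 once the 4 muscle-high libraries were left out. No gene was called in opposite directions by the agents. The number of antagonised induced genes was 0 without DMXAA 3, combination tumour 1 or combination tumour 2, 12 without DMXAA 1, 26 without DMXAA 2, 55 without DMXAA 4 and 154 without DMXAA 2 and DMXAA 3.

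Single tumours also weighed on the count of 239. It fell to 65 without vehicle 1, 84 without vehicle 3, 116, 103, 127 and 139 without BO-112 1, 2, 3 and 4, and 105 and 91 without combination tumours 3 and 4. It rose to 456 without DMXAA 2 and to 710 without DMXAA 2 and DMXAA 3. It was 36, all negative, without the 4 libraries high in muscle genes, a fit that keeps 11 tumours. Of the DMXAA group that fit keeps only DMXAA 2 and DMXAA 4, and of the vehicle group only vehicle 1 and vehicle 3. The fit without DMXAA 2 and DMXAA 3 keeps only DMXAA 1 and DMXAA 4 of that group. What muscle genes, group size and DMXAA 2 each contribute to these shifts was not tested. Of the 239 genes, 58 were called with each of the 15 tumours left out in turn, 57 negative and 1 positive (Pkp1). A group of 25 was called under every log2 alternative tried: Ifi204, Ifi205, Ifi211, Isg15, Usp18, Irf7, Oas1a, Oas1g, Ifitm3, Ifi27l2a, Xaf1, Rtp4, Trim30d, Slfn2, Phf11b, Ly6c2, Plac8, Ms4a4c, Ptx3, Il1rn, Rarres2, Ttc39c, Cndp2, AA467197 and 4930430E12Rik. Scaling by total count alone moved the median log2 interaction of all genes by more than 0.1, from 0.02 to 0.23, and the calls from 204 negative and 35 positive to 70 and 44.

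**Figure D2:**
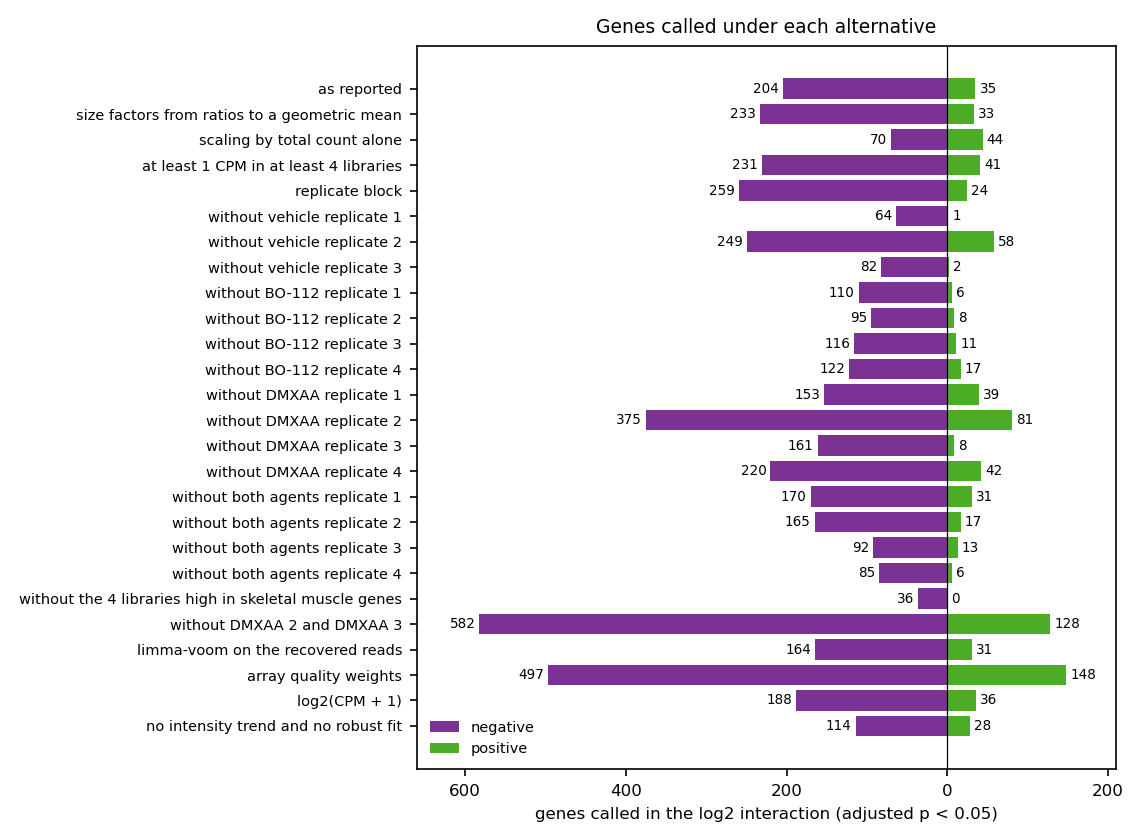
Number of genes called in the log2 interaction (horizontal axis; negative to the left, positive to the right) as reported and under each alternative. Negative calls outnumber positive ones under every setting shown, from 36 against 0 without the 4 libraries high in muscle genes to 582 against 128 without DMXAA 2 and DMXAA 3.

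Type I interferon-stimulated genes were the group with the most calls. Of 39 measured members 25 had a negative call, beside 1.15% of all genes, and none a positive one, and the median log2 interaction was -1.46. All 39 rose with BO-112, 14 rose with DMXAA and 34 rose with both agents, beside 7.64%, 1.08% and 2.49% of all genes. In all 39 the combination mean lay below the higher single agent and below the sum, at a median of 53.8% of the sum, beside 14086 and 9548 of all 17712 genes, and this count was 39 under the 2 other scalings, without DMXAA 2 and DMXAA 3 and without the 4 muscle-high libraries. Negative calls numbered 9 without those 4 libraries, 14 with total-count scaling and 34 without DMXAA 2 and DMXAA 3. Over all 17712 genes they numbered 36, 70 and 582 in the same settings. At the source of the pathway, Ifnb1 (ENSMUSG00000048806.5) read 0.178, 0.0908 and 0.148 CPM with vehicle and 6.39, 11.03, 5.29 and 6.22 with BO-112. It read 0.3096, 0.641, 0.312 and 0.179 CPM with DMXAA and 1.66, 2.302, 1.21 and 1.69 with both agents. The 4 combination tumours lay between the BO-112 and the DMXAA tumours without overlap, at 22.996% of the additive sum of 7.45 CPM. Its log2 interaction was -3.33 ± 0.57 (SE, adjusted p = 0.0135), and the vehicle values rest on 2, 1 and 2 reads, so that the estimate shrank to -1.82 with 1 CPM added. Ifnb1 was higher with both agents than with DMXAA by 2.36 ± 0.39 (SE, adjusted p = 0.0149) on the log2 scale, or 0.99 with 1 CPM added, a call lost without DMXAA 3 and combination tumours 1 and 2 (adjusted p between 0.0726 and 0.0827).

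Isg15, a ubiquitin-like modifier, read 69.1, 97.01 and 64.2 CPM with vehicle, 507, 657, 555 and 535 with BO-112, 155, 261, 188 and 173 with DMXAA and 365, 354, 257 and 245 with both agents. Every combination tumour was below every BO-112 tumour, while the lowest of them fell within the DMXAA range. The mean of 305 ± 63.2 CPM (SD, n = 4) with both agents was 54.2% of the BO-112 mean and 44.8% of the sum. The log2 interaction was -2.24 ± 0.27 (SE, adjusted p = 0.00214), and it stayed between -2.42 and -2.08 as each tumour was left out. Usp18, the protease that removes Isg15 and dampens the interferon receptor, read 28.9, 38.05 and 25.5 CPM with vehicle, 213, 296, 229 and 228 with BO-112, 71.8, 68.7, 65.2 and 72.9 with DMXAA and 155, 164, 113 and 95.6 with both. The 4 groups did not overlap, in the order vehicle, DMXAA, both agents, BO-112. Its log2 interaction was -2.09 ± 0.25 (SE, adjusted p = 0.00214). Isg15 and Usp18 kept their calls under every log2 alternative.

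Irf7, the factor that amplifies interferon production, read 136, 197 and 88.99 CPM with vehicle, 965, 1198, 1038 and 1064 with BO-112, 529.8, 278, 366 and 363 with DMXAA and 713, 767, 424 and 585 with both agents. The combination tumours lay below all BO-112 tumours and overlapped the DMXAA range, at 47.5% of the sum, with a log2 interaction of -2.29 ± 0.36 (SE, adjusted p = 0.00935). Oas1a, which makes the 2′-5′ oligoadenylates that activate RNase L, read 45.1, 60.7 and 39.7 CPM with vehicle, 199, 241, 197 and 208 with BO-112, 105, 116, 111 and 92.5 with DMXAA and 148, 159.6, 116 and 114 with both. Its combination tumours overlapped those given DMXAA and lay below all of those given BO-112, and its log2 interaction was -1.81 ± 0.21 (SE, adjusted p = 0.00214). For Rtp4, an interferon-induced transporter-like protein, DMXAA alone came close to BO-112: 126, 146, 137 and 133 against 175, 185, 199 and 189.7 CPM, over 61.5, 76.1 and 44.1 with vehicle. The combination gave 181, 151, 152 and 139.9 CPM, overlapping both single agents, which is 59.6% of the sum, and the log2 interaction was -1.46 ± 0.20 (SE, adjusted p = 0.00444).

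Other interferon-stimulated genes were called with BO-112 and not with DMXAA. Ifit1, which binds foreign RNA ends, read 118, 125 and 81.9 CPM with vehicle, 644, 794, 661 and 623 with BO-112, 158, 164, 151 and 219.8 with DMXAA and 469.7, 472, 345 and 314 with both agents. DMXAA did not pass the test for Ifit1 (adjusted p = 0.0985), yet all 4 combination tumours lay below all 4 BO-112 tumours, and the log2 interaction was -1.46 ± 0.26 (SE, adjusted p = 0.0152). Rsad2, the antiviral enzyme viperin, read 68.7, 89.5 and 46.5 CPM with vehicle, 1186, 1452, 1249 and 1159.99 with BO-112, 202, 95.96, 110.3 and 248 with DMXAA and 603, 669.8, 357 and 505 with both. Its combination mean was 42.3% of the BO-112 mean and its log2 interaction -2.48 ± 0.42 (SE, adjusted p = 0.0135). The difference of both agents from BO-112 alone itself did not pass the test for Ifit1 (-0.78 on the log2 scale, adjusted p = 0.139) or Rsad2 (-1.27, adjusted p = 0.139). Cxcl10, the interferon-induced ligand of CXCR3, read 317, 411 and 105 CPM with vehicle, 1249.95, 1676, 1550.3 and 1089 with BO-112, 279.5, 498, 304 and 343 with DMXAA and 772, 859, 663 and 464 with both. All its combination tumours lay below the BO-112 tumours, and its log2 interaction of -1.57 ± 0.50 (SE, adjusted p = 0.155) missed the threshold. The 28 measured genes of the interferon gamma response had no call in either direction and a median of -0.75.

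**Figure D3:**
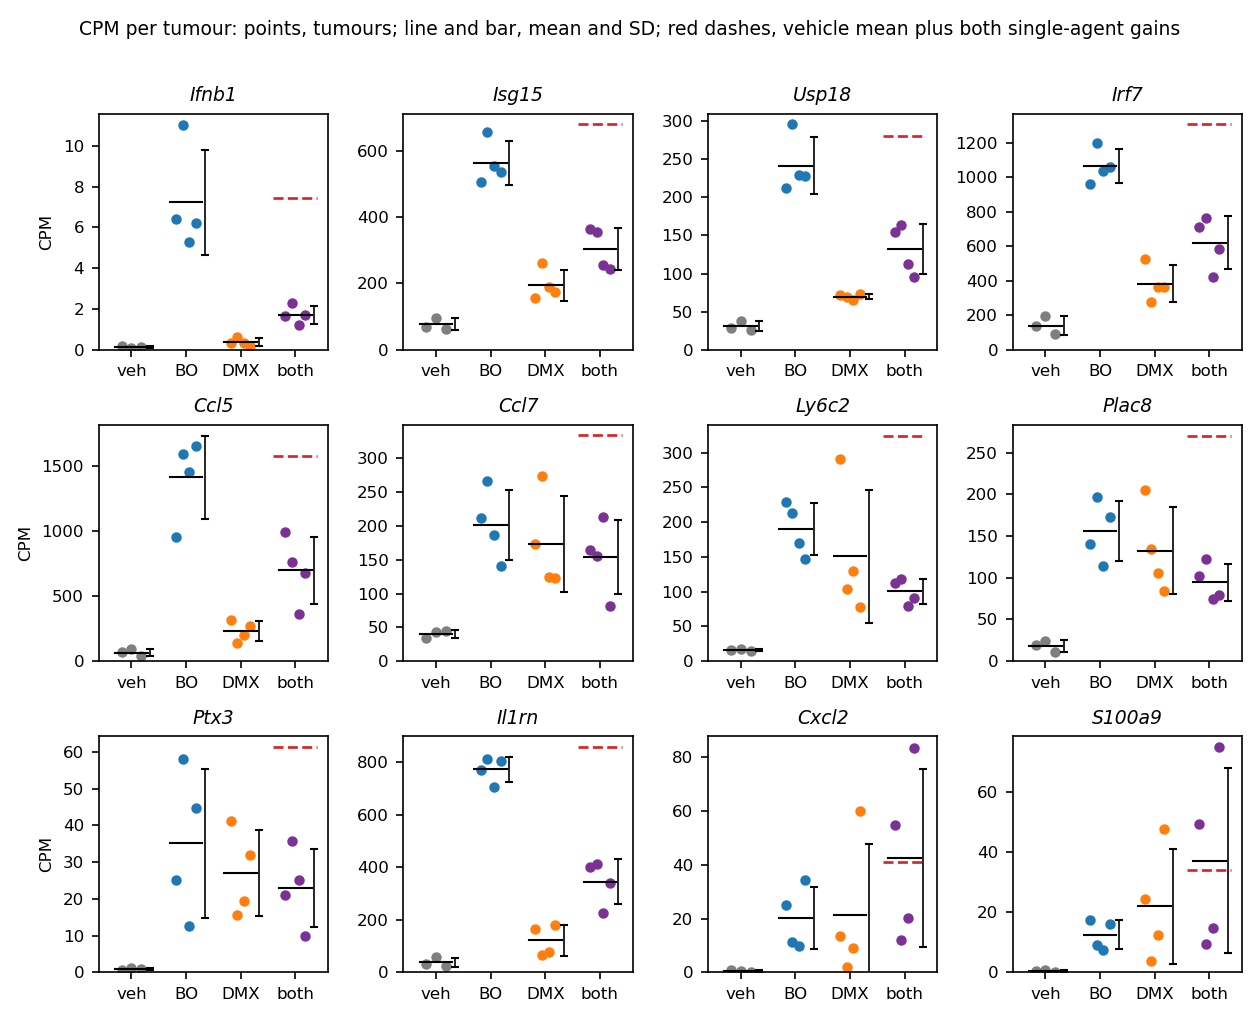
CPM (vertical axis, from 0) in each tumour for 12 induced genes in the vehicle (veh), BO-112 (BO), DMXAA (DMX) and combination (both) groups; points are tumours, black lines and bars the mean and SD (bars end at 0 where the SD passes it), red dashes the vehicle mean plus both single-agent gains. In the first 10 genes the combination tumours lie below the dashes, while for Cxcl2 and S100a9 they scatter around them.

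Of 20 genes for double-stranded RNA sensing, 3 had a negative call (Irf7, Dhx58 and Trim25), and of 18 genes of the cGAS and STING pathway 2 did (Ifi204 and Mndal), beside 1.15% of all genes, with medians of -0.44 and -0.24. These counts were 9 and 3 without DMXAA 2 and DMXAA 3, and 1 and 1 with total-count scaling or without the 4 muscle-high libraries. Over all 17712 genes the negative calls numbered 582, 70 and 36 in these settings. Ifi204, a DNA-binding protein of the interferon-inducible p200 family, read 72.5, 92.9 and 56.4 CPM with vehicle, 420.2, 446, 403 and 410.2 with BO-112, 213, 144, 121 and 196 with DMXAA and 270.3, 285, 193 and 265 with both agents. The combination tumours lay below all BO-112 tumours and overlapped the DMXAA range, with a log2 interaction of -1.93 ± 0.27 (SE, adjusted p = 0.00541). Sting itself, named Tmem173 in the annotation, had group means of 69.7, 54.1, 65.4 and 53.8 CPM in the order vehicle, BO-112, DMXAA and both, with no call in the interaction (0.08, adjusted p = 0.854). Tlr3 means were 32.1, 86.1, 38.9 and 62.9 CPM, also with no call (-0.75, adjusted p = 0.121).

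In the list of feedback inhibitors, 6 of 24 measured genes had a negative call, beside 1.15% of all genes. They were Usp18, Isg15, Nfkbia, Il1rn, Zfp36 and Trim30a. The calls numbered 3 without the 4 muscle-high libraries, 4 with total-count scaling and 10 without DMXAA 2 and DMXAA 3. Over all 17712 genes negative calls numbered 36, 70 and 582 in these settings. Il1rn, the interleukin 1 receptor antagonist, read 33.3, 58.3 and 24.9 CPM with vehicle and 769.9, 813, 707 and 805 with BO-112. It read 163, 67.96, 77.3 and 181 CPM with DMXAA and 399, 412, 226 and 341 with both agents, so the 4 groups stood apart in the same order as for Usp18. Its log2 interaction was -2.82 ± 0.47 (SE, adjusted p = 0.0118). Nfkbia, which holds NF-kB in the cytoplasm, read 123, 119 and 108 CPM with vehicle, 293, 367, 340.2 and 309 with BO-112, 149, 177, 145 and 159 with DMXAA and 209, 255, 238 and 197 with both. Its 4 groups did not overlap, and it had a log2 interaction of -0.97 ± 0.16 (SE, adjusted p = 0.0118). Of 31 inflammatory cytokines and NF-kB targets, 4 had a negative call (Nfkbia, Il1rn, Il15 and Ebi3), beside 1.15% of all genes, against 2 without the 4 muscle-high libraries and 11 without DMXAA 2 and DMXAA 3. The combination mean was below the higher single agent in all 31, beside 14086 of all 17712 genes, at a median of 61.1% of the sum. The classical cytokines had values in the same direction that missed the threshold. Tnf read 7.08, 11.7 and 3.05 CPM with vehicle, 37.8, 44.7, 35.6 and 19.6 with BO-112, 17.3, 15.6, 14.9 and 17.8 with DMXAA and 25.9, 28.3, 30.4 and 23.5 with both. Its combination tumours lay above the DMXAA tumours and within the BO-112 range, and the log2 interaction was -1.66 ± 0.47 (SE, adjusted p = 0.1). Il6 means were 0.517, 5.68, 1.82 and 3.36 CPM in that order, with a log2 interaction of -2.26 ± 0.60 (SE, adjusted p = 0.0799), or -1.33 with 1 CPM added.

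Il12b, the shared p40 subunit of interleukins 12 and 23, was called with BO-112 and not with DMXAA. It read 4.66, 2.27 and 3.47 CPM with vehicle, 18.8, 57.1, 37.3 and 47.4 with BO-112, 4.36, 2.75, 2.32 and 2.02 with DMXAA and 16.9, 20.1, 12.1 and 14.4 with both agents. The combination tumours stood above every DMXAA tumour and overlapped BO-112 tumours only at their lowest, at 39.6% of the BO-112 mean. The interaction missed the threshold (-0.97, adjusted p = 0.377), as did the difference of both agents from BO-112 (-1.25, adjusted p = 0.214). Il12b was higher with both agents than with DMXAA by 2.51 ± 0.33 (SE, adjusted p = 0.00868), a call lost without combination tumours 1 and 2 (adjusted p between 0.0523 and 0.0612).

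Of 20 lymphocyte and monocyte chemokines, 5 had a negative call, beside 1.15% of all genes, and none a positive one, with a median log2 interaction of -1.52. None of the 5 was called without the 4 muscle-high libraries, where the median was -2.16 and 36 of all 17712 genes had a negative call. Ccl5, a T cell attractant, read 67.1, 90.2 and 36.2 CPM with vehicle and 951, 1589, 1450.3 and 1654 with BO-112. It read 318, 143, 199 and 268 CPM with DMXAA and 989, 758, 364 and 674 with both agents, 44.1% of the sum, and 1 combination tumour reached the lowest BO-112 tumour. Its log2 interaction was -2.95 ± 0.49 (SE, adjusted p = 0.0119). Ccl7, a monocyte attractant, read 33.8, 43.01 and 44.4 CPM with vehicle, 212, 267, 186 and 141 with BO-112, 173, 274, 124 and 123 with DMXAA and 164, 156, 214 and 81.7 with both. The 3 treated groups overlapped for Ccl7, and the log2 interaction was -2.47 ± 0.43 (SE, adjusted p = 0.0152), lost without vehicle 1 (adjusted p = 0.055). Ccl2, its neighbour in function, had means of 99.3, 383, 251 and 259 CPM in the order vehicle, BO-112, DMXAA and both, with a log2 interaction of -1.92 ± 0.36 (SE, adjusted p = 0.0185) that was lost without vehicle 1 and 3 (adjusted p between 0.0642 and 0.0655). Ccl12 gave -2.004 ± 0.38 (SE, adjusted p = 0.0197), lost without vehicle 1 and BO-112 2 (adjusted p between 0.0502 and 0.0739). Ccl11, the eosinophil attractant eotaxin, read 2.46, 4.93 and 5.31 CPM with vehicle, 16.3, 63.3, 25.4 and 29.1 with BO-112, 59.9, 39.9, 19.99 and 37.4 with DMXAA and 19.8, 35.9, 25.4 and 9.95 with both. Again the treated groups overlapped one another and not the vehicle group, and its log2 interaction of -3.71 ± 0.66 (SE, adjusted p = 0.0158) was lost without vehicle 1 (adjusted p = 0.0557).

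Neutrophil chemokines and neutrophil proteins included 3 of the 5 genes at or above the sum among the 154 raised by each agent. Of 10 measured chemokines and colony-stimulating factors only Ccl4 had a negative call, beside 1.15% of all genes. The combination mean was at or above the additive sum in 2 of 10 and below the higher single agent in 5, beside 8164 and 14086 of all 17712 genes. Cxcl2, a ligand of the neutrophil receptor CXCR2, read 0.961, 0.515 and 0.326 CPM with vehicle, 25.3, 11.4, 9.94 and 34.3 with BO-112, 13.6, 1.9999, 9.25 and 60.2 with DMXAA and 54.8, 11.9, 20.1 and 83.4 with both agents. The spread within each treated group was wide, with DMXAA 2 lowest among all treated tumours, and the groups overlapped. The combination mean was 42.6 CPM against a sum of 40.9, a linear interaction of 1.65 CPM (95% interval -39.2 to 42.5, adjusted p = 0.972), and the log2 interaction was -3.48 ± 1.23 (SE, adjusted p = 0.204), or -2.19 with 1 CPM added. Cxcl3, another CXCR2 ligand, read 0.3203, 1.18 and 0.385 CPM with vehicle, 11.4, 5.86, 3.63 and 23.3 with BO-112, 11.1, 1.32, 5.3004 and 26.8 with DMXAA and 37.01, 9.24, 11.1 and 59.3 with both, and its combination mean was 135% of the sum of 21.5 CPM, a linear interaction of 7.61 CPM (95% interval -17.9 to 33.1, adjusted p = 0.764). Both intervals include 0 and reach most of the size of the sum on either side, so that a departure from the sum was not detectable for these genes with this number of tumours. Cxcl1 had means of 35.4 CPM for BO-112 and 35.4 for both agents against 17.1 for DMXAA and 7.48 for vehicle, and a log2 interaction of -1.18 ± 0.33 (SE, adjusted p = 0.0941). Without DMXAA 2 and DMXAA 3, the combination mean was at or above the sum in 0 of the 10 genes and below the higher single agent in 7. In that setting 3 of the 10 had a negative log2 call, beside 582 of all 17712 genes.

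S100a8 and S100a9, the subunits of calprotectin carried by neutrophils, followed the same pattern. S100a8 read 0.676, 1.06 and 0.148 CPM with vehicle, 7.32, 4.54, 4.02 and 8.26 with BO-112, 11.5, 2.75, 5.92 and 19.04 with DMXAA and 23.7, 5.56, 4.35 and 34.96 with both agents. S100a9 read 0.534, 0.878 and 0.267 CPM with vehicle, 17.4, 9.29, 7.48 and 15.98 with BO-112, 24.4, 3.74, 12.3 and 47.9 with DMXAA and 49.4, 9.55, 14.8 and 74.9 with both. In each gene the combination tumours 1 and 4 were high and 2 and 3 low, and the combination means were 113% and 109% of the sums, with linear interactions of 1.92 CPM (95% interval -10.8 to 14.6, adjusted p = 0.887) and 3.14 CPM (95% interval -25.7 to 31.98, adjusted p = 0.921). Of the 5 genes at or above the sum among the 154, the others beside these and Cxcl2 were Gm5483 and Stfa2l1, both named after their values were seen. Without DMXAA 2 and DMXAA 3, 0 of the 154 stood at or above the sum. Of 22 neutrophil markers 5 had a negative log2 call (Slpi, Fpr2, Lcn2, Clec4e and Clec4d), beside 1.15% of all genes. The combination mean was below the higher single agent in 11 of the 22, beside 14086 of all 17712 genes. With total-count scaling there were 2 calls. Without the 4 muscle-high libraries there was no call, and without DMXAA 2 and DMXAA 3 there were 8, with 16 of 22 below the higher single agent. Over all 17712 genes these 3 settings gave 70, 36 and 582 negative calls.

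The called members of the neutrophil marker list differed in how they stood against the single agents. Which cells of the bulk tumours gave their reads was not tested. Lcn2, the iron-scavenging protein lipocalin 2, read 0.391, 0.636 and 0.08896 CPM with vehicle, 11.6, 58.99, 6.02 and 10.1 with BO-112, 40.1, 8.26, 9.596 and 21.2 with DMXAA and 39.1, 20.8, 29.6 and 29.3 with both agents. Its mean with both was 137% of the higher single agent yet 72.3% of the sum, and its log2 interaction was -4.82 ± 1.03 (SE, adjusted p = 0.0343), -2.73 with 1 CPM added. Slpi, an inhibitor of neutrophil elastase, read 0.178, 0.515 and 0.326 CPM with vehicle, 47.4, 28.8, 38.1 and 56.4 with BO-112, 18.98, 1.77, 14.03 and 37.2 with DMXAA and 37.2, 23.3, 11.7 and 48.2 with both. Its log2 interaction of -5.86 ± 1.05 (SE, adjusted p = 0.0158) was the most negative of all genes and rests on 2, 8 and 5 reads in the vehicle tumours; it was -3.94 with 1 CPM added. Clec4e, the receptor Mincle, was high with BO-112 alone: 275, 329, 323 and 299 CPM against 27.1, 5.09, 10.6 and 31.4 with DMXAA, 123, 135, 54.5 and 107 with both and 4.73, 6.81 and 1.57 with vehicle. The combination stood at 34.2% of the BO-112 mean, below every BO-112 tumour, with a log2 interaction of -3.61 ± 0.77 (SE, adjusted p = 0.0343). Fpr2, a formyl peptide receptor, had means of 1.89, 57.97, 8.92 and 31.1 CPM in the order vehicle, BO-112, DMXAA and both, and a log2 interaction of -3.61 ± 0.70 (SE, adjusted p = 0.0213). The call of Lcn2 was lost without vehicle 1 and 3, BO-112 1, 2 and 4, DMXAA 1 and combination tumours 2, 3 and 4 (adjusted p between 0.0507 and 0.101). That of Clec4e was lost without vehicle 1 and 3, BO-112 1, 2, 3 and 4, DMXAA 1 and combination tumours 3 and 4 (adjusted p between 0.0522 and 0.106), that of Fpr2 without BO-112 2 and combination tumours 3 and 4 (adjusted p between 0.0501 and 0.0548) and that of Slpi without vehicle 1 (adjusted p = 0.0568).

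Among 16 monocyte markers, 3 had a negative call, beside 1.15% of all genes, and 5 did without DMXAA 2 and DMXAA 3. Ly6c2, a surface marker of inflammatory monocytes, read 16.4, 16.9 and 14.9 CPM with vehicle, 228, 213, 171 and 148 with BO-112, 291, 104, 130.1 and 78.02 with DMXAA and 112, 118, 79.7 and 90.5 with both agents. The combination tumours lay below all BO-112 tumours and within the DMXAA range, and the mean of 100.2 CPM was 30.9% of the sum. Its log2 interaction was -3.96 ± 0.44 (SE, adjusted p = 0.00214) and its linear interaction -224 CPM (95% interval -317 to -132, adjusted p = 0.0709). Plac8, expressed in monocytes and other myeloid cells, read 19.8, 24.6 and 10.8 CPM with vehicle, 141, 197, 114 and 173 with BO-112, 205, 134, 106 and 84.6 with DMXAA and 102, 122, 74.2 and 79.2 with both. The treated groups overlapped one another, with a log2 interaction of -3.57 ± 0.42 (SE, adjusted p = 0.00214). Ms4a4c, a membrane protein of the Ms4a family, read 53.3, 72.7 and 34.9 CPM with vehicle, 369.9, 404, 401 and 409.9 with BO-112, 186, 167, 143 and 126 with DMXAA and 272, 292, 201 and 227 with both, and its 4 groups stood apart, with a log2 interaction of -2.27 ± 0.28 (SE, adjusted p = 0.0022). All 3 were called under every log2 alternative. The 22 macrophage markers, 26 T cell markers, 10 measured B and plasma cell markers and 24 endothelial genes had no interaction call in either direction, with medians of -0.15, -0.59, -0.33 and -0.46. Without DMXAA 2 and DMXAA 3 the macrophage markers had 2 negative calls and 1 positive call. The B and plasma cell markers and the endothelial genes then had 2 negative calls each, and the T cell markers had 0. In that setting 582 of all 17712 genes had a negative call and 128 a positive one.

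Acute phase genes included some of the lowest log2 interactions. Ptx3, a soluble pattern recognition protein of the pentraxin family, read 0.534, 1.12 and 0.8599 CPM with vehicle. It read 25.1, 57.97, 12.5 and 44.8 CPM with BO-112, 41.1, 15.6, 19.4 and 31.9 with DMXAA and 21.2, 35.8, 25.1 and 10.02 with both agents. The 3 treated groups overlapped one another and stood above vehicle without overlap. The combination mean was 37.6% of the sum of 61.2 CPM, the log2 interaction was -5.49 ± 0.70 (SE, adjusted p = 0.00249), and it was -4.35 with 1 CPM added. Saa3, an acute phase apolipoprotein, read 11.1, 9.23 and 4.95 CPM with vehicle, 108, 343, 112 and 259 with BO-112, 80.2, 89.3, 56.99 and 47.8 with DMXAA and 171, 215, 131 and 67.1 with both, with a log2 interaction of -3.49 ± 0.61 (SE, adjusted p = 0.0152). Of the 22 measured genes of coagulation, fibrinolysis and acute phase, 5 had a negative call (Ptx3, Saa3, Lbp, Tfpi2 and Procr), beside 1.15% of all genes, and the combination mean was below the sum in all 22, beside 9548 of all 17712 genes. The calls numbered 2 with total-count scaling, with limma-voom or without the 4 muscle-high libraries, and 11 without DMXAA 2 and DMXAA 3. Over all 17712 genes negative calls numbered 70, 164, 36 and 582 in these settings. Rarres2, the precursor of the chemoattractant chemerin, read 3.02, 4.57 and 1.87 CPM with vehicle, 15.5, 58.9, 15.5 and 37.2 with BO-112, 62.6, 31.9, 27.1 and 31.7 with DMXAA and 23.7, 23.5, 22.7 and 15.4 with both. Its combination tumours lay below every DMXAA tumour and overlapped the BO-112 tumours, with a log2 interaction of -3.97 ± 0.60 (SE, adjusted p = 0.0077). Timp1, an inhibitor of matrix metalloproteinases, had means of 56.3 ± 5.45 CPM with vehicle (SD, n = 3), 169 ± 50.1 with BO-112, 176 ± 39.97 with DMXAA and 139.6 ± 30.04 with both (SD, n = 4 each), and a log2 interaction of -1.88 ± 0.31 (SE, adjusted p = 0.0119).

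Adipocyte genes were uneven across tumours, and their sum ran from 65.8 to 93.3 CPM in the vehicle group, 71.9 to 439 in the BO-112 group, 66.4 to 447 in the DMXAA group and 72.2 to 155 in the combination group. Muscle and adipocyte genes had negative medians (-2.45 and -1.78 over 20 and 14 genes) with no call, and their part in the other results was not tested. Without the 4 libraries high in muscle genes the median of the interferon-stimulated genes was -1.72 and the calls of Ptx3, Ly6c2, Plac8, Rarres2, Isg15 and Usp18 were kept.

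Among cytotoxic and NK cell genes 4 of 21 had a negative call (Ccl5, Gzma, Prf1 and Nkg7), beside 1.15% of all genes, and the combination mean was below the sum in all 21, beside 9548 of all 17712 genes. None of the 21 was called without the 4 muscle-high libraries, and 2 were with total-count scaling. Over all 17712 genes negative calls numbered 36 and 70 in these settings. Prf1, the pore-forming perforin, read 15.2, 19.4 and 7.68 CPM with vehicle, 46.03, 43.2, 48.3 and 39.6 with BO-112, 35.6, 19.7, 21.7 and 28.8 with DMXAA and 21.3, 29.2, 24.7 and 27.7 with both agents. All combination tumours were below all BO-112 tumours and within the DMXAA range, with a log2 interaction of -1.76 ± 0.36 (SE, adjusted p = 0.0274). Gzma, a granzyme, read 7.79, 7.29 and 7.62 CPM with vehicle, 22.5, 20.8, 17.1 and 13.2 with BO-112, 28.7, 47.5, 20.8 and 17.7 with DMXAA and 13.004, 23.9, 14.5 and 12.8 with both. Its treated groups overlapped one another and lay above vehicle, and its log2 interaction was -2.03 ± 0.41 (SE, adjusted p = 0.0263). The call of Prf1 was lost without vehicle 1, BO-112 1, 2 and 3 and combination tumours 3 and 4 (adjusted p between 0.0544 and 0.0613), and that of Gzma without vehicle 1 and 3, BO-112 1, 2 and 3 and combination tumours 3 and 4 (adjusted p between 0.0501 and 0.0754). Gzmb missed the threshold, with means of 32.6, 139.9, 56.3 and 67.4 CPM in the order vehicle, BO-112, DMXAA and both (-2.13, adjusted p = 0.0752).

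For antigen presentation, 4 of 24 genes of MHC class I and antigen processing had a negative call (H2-T22, H2-T10, H2-T23 and H2-D1), beside 1.15% of all genes, and none a positive one. The count was 0 without the 4 muscle-high libraries, 1 with total-count scaling and 8 without DMXAA 2 and DMXAA 3. Over all 17712 genes negative calls numbered 36, 70 and 582 in these settings. Genes of MHC class I are related in sequence, and reads shared between them may leave their single values uncertain, which was not tested. H2-T22 read 247, 283 and 165 CPM with vehicle, 534, 666, 578 and 642 with BO-112, 409, 551, 451 and 378 with DMXAA and 523, 487, 403 and 426 with both agents, at 56.02% of the sum, with a log2 interaction of -1.37 ± 0.24 (SE, adjusted p = 0.0157). Of 24 genes of cell death and the inflammasome, 4 had a negative call, beside 1.15% of all genes, with 0 without the 4 muscle-high libraries and 1 with total-count scaling. Mlkl, the executor of necroptosis, read 87.4, 103 and 69.4 CPM with vehicle, 180.3, 189, 183 and 184 with BO-112, 109.8, 113, 120.04 and 128 with DMXAA and 148, 135, 132 and 120.5 with both. The combination tumours lay below all BO-112 tumours and overlapped the DMXAA range, and the log2 interaction was -0.93 ± 0.16 (SE, adjusted p = 0.0157). Ninj1, which ruptures the membrane of dying cells, had means of 42.5, 125, 71.6 and 85.2 CPM in the order vehicle, BO-112, DMXAA and both, and a log2 interaction of -1.34 ± 0.21 (SE, adjusted p = 0.00944). Casp1 and Casp4 were the other called members. Among 19 checkpoint and costimulatory ligands only Lgals9, the lectin galectin 9, had a negative call, beside 1.15% of all genes. Lgals9 read 101, 98.9 and 81.9 CPM with vehicle, 251, 260.1, 213 and 247 with BO-112, 159, 116, 137 and 134 with DMXAA and 175, 191, 146 and 161 with both. Its combination tumours lay below all BO-112 tumours and overlapped the DMXAA range, and the log2 interaction was -1.08 ± 0.18 (SE, adjusted p = 0.0106). No gene of that list was called without the 4 muscle-high libraries or with total-count scaling, and 6 were without DMXAA 2 and DMXAA 3. Cd274, which encodes PD-L1, had means of 63.5, 299, 84.4 and 178 CPM in the order vehicle, BO-112, DMXAA and both and no call (-1.11, adjusted p = 0.337).

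**Figure D4:**
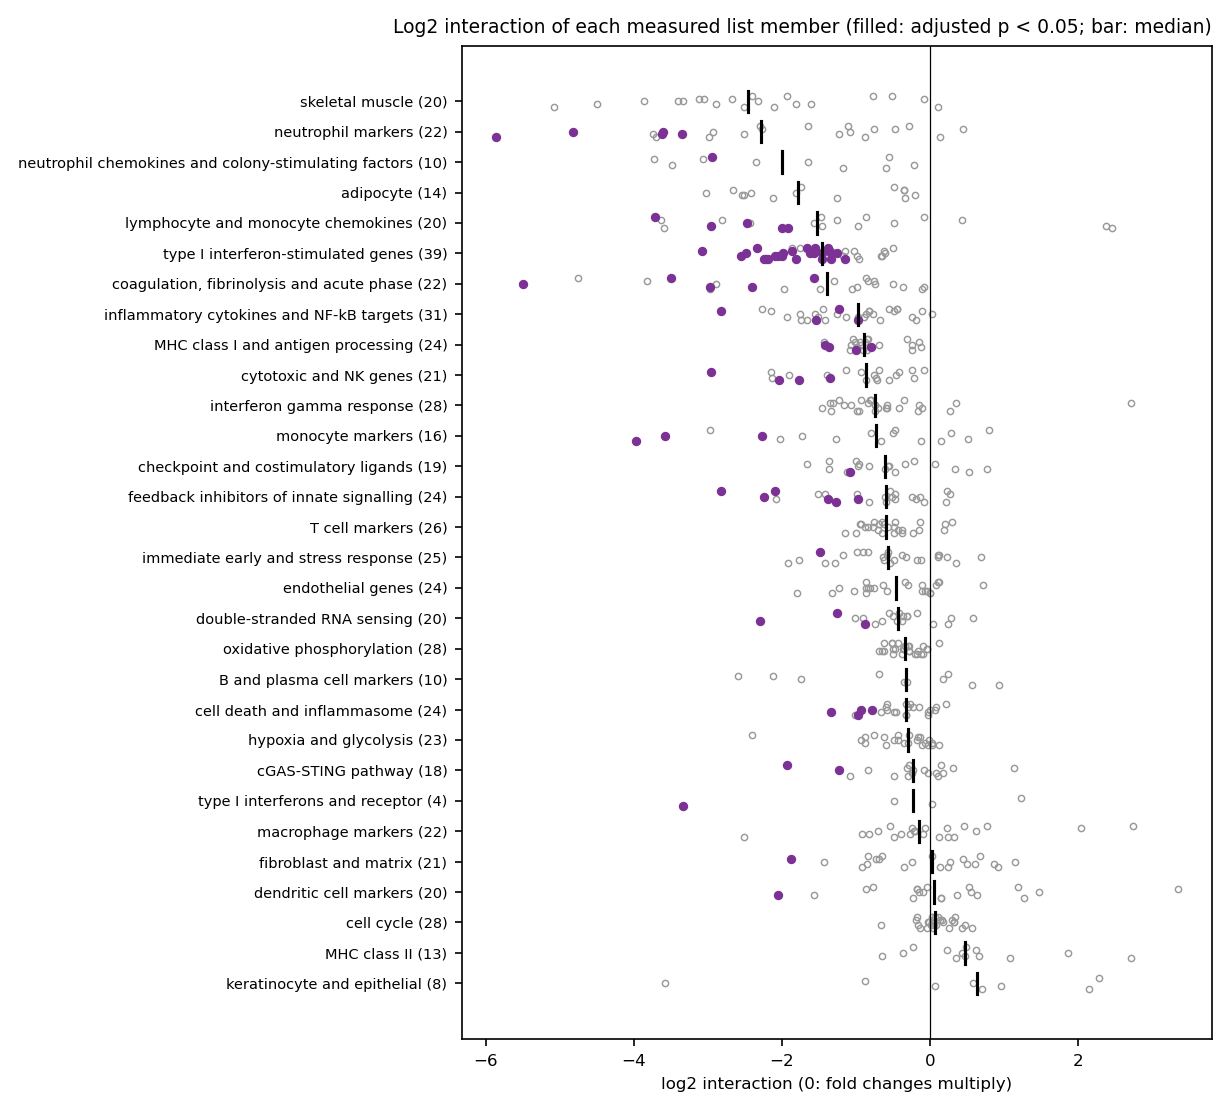
Log2 interaction (horizontal axis) of every measured member of the 30 gene lists, with the number measured in brackets; filled points passed an adjusted p of 0.05 and bars are list medians. Filled points lie to the left of 0 in every list that has any, and the interferon-stimulated genes hold 25 of them.

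Antagonism in the strict sense, a combination called lower than the higher single agent, was found for 4 induced genes, and in each the higher agent was DMXAA. No gene passed the test between the combination and BO-112 alone, so genes with BO-112 as the higher agent could not enter this class. That DMXAA was the higher agent in each is therefore no finding about these genes. Cd5l, a secreted macrophage protein also called AIM, read 0.107, 0.0908 and 0.148 CPM with vehicle, 0.9596, 0.691, 0.233 and 0.415 with BO-112, 3.36, 0.943, 2.46 and 3.55 with DMXAA and 0.193, 0.399, 0.329 and 0.241 with both agents. The combination tumours lay below every DMXAA tumour and overlapped the BO-112 range. Both agents differed from DMXAA by -3.04 ± 0.50 (SE, adjusted p = 0.0154) on the log2 scale, and the log2 interaction was -5.19 ± 0.74 (SE, adjusted p = 0.00541). These are low levels, 1, 1 and 2 reads with vehicle and 2, 6, 4 and 3 with both, and with 1 CPM added the difference from DMXAA was -1.40 and the interaction -1.88. The comparison with DMXAA was lost for Cd5l without DMXAA 3 and combination tumours 1 and 2 (adjusted p between 0.0612 and 0.0743).

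Metrnl, a secreted factor of adipose tissue, muscle and macrophages, read 22.1, 26.9 and 28.5 CPM with vehicle, 50.2, 45.9, 41.5 and 42.6 with BO-112, 65.9, 88.3, 53.9 and 54.9 with DMXAA and 43.6, 40.4, 41.5 and 35.9 with both agents. The combination tumours overlapped the BO-112 range and lay below all DMXAA tumours, by -0.68 ± 0.15 (SE, adjusted p = 0.0414) on the log2 scale, with a log2 interaction of -1.49 ± 0.21 (SE, adjusted p = 0.00576). Creg1, a lysosomal glycoprotein, read 47.6, 45.6 and 47.8 CPM with vehicle, 54.1, 53.5, 50.8 and 49.03 with BO-112, 75.1, 82.98, 66.3 and 72.2 with DMXAA and 58.4, 53.2, 54.9 and 55.3 with both, a log2 difference from DMXAA of -0.42 ± 0.09 (SE, adjusted p = 0.0359). Ckb, brain-type creatine kinase, read 37.97, 60.4 and 22.2 CPM with vehicle, 38.8, 33.6, 34.5 and 23.5 with BO-112, 85.1, 155, 129 and 65.9 with DMXAA and 34.9, 26.5, 50.2 and 32.96 with both. Its combination tumours overlapped the vehicle and BO-112 tumours and differed from DMXAA by -1.55 ± 0.31 (SE, adjusted p = 0.0344) on the log2 scale. The log2 interaction of Ckb had no call (-1.34, adjusted p = 0.183). That of Creg1 was -0.56 (adjusted p = 0.0402), a call held in 3 of the 15 fits that left out 1 tumour. The comparison with DMXAA was lost for Metrnl without vehicle 1 and 2, BO-112 1, 2, 3 and 4, DMXAA 3 and combination tumours 1, 2, 3 and 4 (adjusted p between 0.0528 and 0.149), for Creg1 without vehicle 1, BO-112 1, 2, 3 and 4, DMXAA 3 and combination tumours 1, 2, 3 and 4 (adjusted p between 0.0507 and 0.149) and for Ckb without vehicle 1, BO-112 1, 2 and 3, DMXAA 2 and 3 and combination tumours 1, 2 and 4 (adjusted p between 0.0503 and 0.149). The 4 genes were chosen by this contrast, so its values describe them and do not test them further.

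The 2 antagonised repressed genes were low with DMXAA alone. Since no gene passed the test between the combination and BO-112 alone, genes with BO-112 as the lower agent could not enter this class. Dnm3os, a long non-coding RNA of mesenchymal cells that is transcribed antisense to Dnm3, read 64.7, 37.4 and 67.2 CPM with vehicle, 43.7, 53.4, 36.8 and 57.7 with BO-112, 31.5, 33.02, 24.98 and 24.4 with DMXAA and 62.1, 66.6, 43.9 and 64.4 with both agents. Calcoco1, a selective autophagy receptor, read 51.1, 43.1 and 55.2 CPM with vehicle, 52.3, 51.2, 52.8 and 54.4 with BO-112, 31.1, 22.8, 33.4 and 33.6 with DMXAA and 49.5, 56.1, 38.4 and 56.7 with both. For both all combination tumours stood above all DMXAA tumours, by 1.05 ± 0.20 (SE, adjusted p = 0.0307) and 0.73 ± 0.14 (SE, adjusted p = 0.0338) on the log2 scale. Neither gene had a call in the log2 interaction (1.26, adjusted p = 0.0514, for Dnm3os and 0.64, adjusted p = 0.172, for Calcoco1). The call against DMXAA was lost for Dnm3os without DMXAA 3 and combination tumours 1, 2 and 4 (adjusted p between 0.0796 and 0.138). It was lost for Calcoco1 without BO-112 1, 2, 3 and 4, DMXAA 3 and combination tumours 1, 2 and 4 (adjusted p between 0.0503 and 0.149).

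The 35 genes with a positive log2 interaction were mostly repressed by the agents alone, and the combination lowered them less than the product of the single falls. Pkp1, a desmosomal plaque protein, read 0.8897, 3.06 and 0.8599 CPM with vehicle, 0.192, 0.2104, 0.366 and 0.287 with BO-112, 0.119, 0.264, 0.104 and 0.128 with DMXAA and 0.424, 0.399, 0.548 and 0.241 with both agents. All treated tumours were below all vehicle tumours, the log2 interaction was 3.82 ± 0.71 (SE, adjusted p = 0.0181), and it was 1.22 with 1 CPM added. Abca9, a lipid transporter, read 16.1, 10.9 and 18.9 CPM with vehicle, 2.002, 1.59, 3.29 and 1.63 with BO-112, 7.503, 3.89, 6.27 and 6.06 with DMXAA and 2.51, 4.45, 4.79 and 6.16 with both. The combination tumours overlapped those of each single agent and lay below vehicle, and the log2 interaction of 2.44 ± 0.46 (SE, adjusted p = 0.0183) was lost without vehicle 1 and 3 (adjusted p between 0.0651 and 0.0655). Mme, the membrane peptidase neprilysin, had means of 63.4 ± 15.3 CPM with vehicle (SD, n = 3), 36.6 ± 5.09 with BO-112, 38.3 ± 7.97 with DMXAA and 51.9 ± 5.63 with both (SD, n = 4 each), and a log2 interaction of 1.23 ± 0.25 (SE, adjusted p = 0.0275). For Letm2, a mitochondrial inner membrane protein, the means were 5.93, 3.18, 4.46 and 5.39 CPM in the same order and the log2 interaction 1.16 ± 0.24 (SE, adjusted p = 0.0292). In Mme and Letm2 every combination tumour lay above every BO-112 tumour and overlapped the vehicle group. Bmf, a pro-apoptotic member of the BCL2 family, read 36.7, 19.8 and 39.2 CPM with vehicle, 13.1, 20.6, 19.3 and 14.3 with BO-112, 14.8, 15.5, 12.2 and 13.4 with DMXAA and 25.8, 29.4, 15.1 and 30.2 with both, with a log2 interaction of 1.69 ± 0.36 (SE, adjusted p = 0.0346). Calls were lost for Mme without vehicle 1 and 3, BO-112 1, 2 and 3 and combination tumours 3 and 4 (adjusted p between 0.053 and 0.091), for Letm2 without vehicle 1, BO-112 1, 2 and 4, DMXAA 3 and combination tumours 2 and 3 (adjusted p between 0.053 and 0.1) and for Bmf without vehicle 1 and 3, BO-112 1, 2, 3 and 4, DMXAA 3 and combination tumours 1, 2 and 4 (adjusted p between 0.0507 and 0.116). Other genes named by the rule in this direction were AA414992, Kif26b, Nxpe5, Pik3r3, Plxnb1, Sec16b and Tmem44. DMXAA 2 was the lowest DMXAA tumour in 18 of the 35 genes (51.4%), beside 37.8% of all genes, and no list had a positive call in the fit as reported. Without DMXAA 2 and DMXAA 3 the macrophage, MHC class II and oxidative phosphorylation lists had 1 positive call each.

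**Figure D5:**
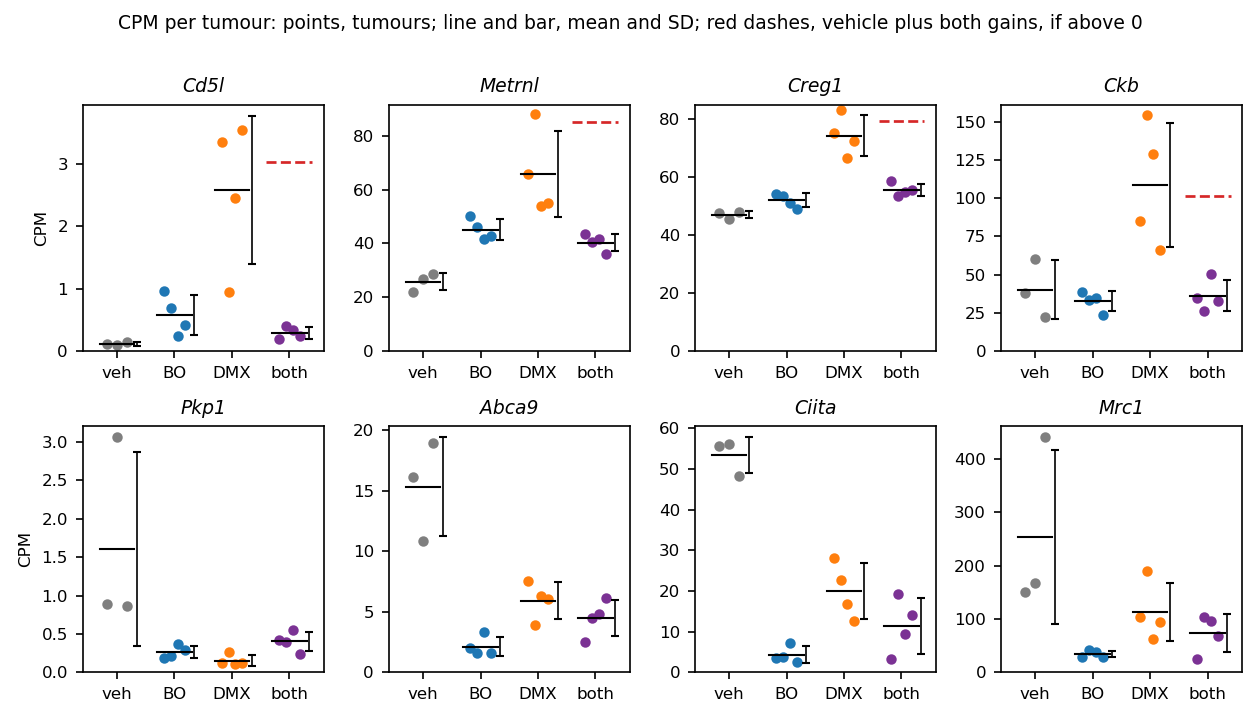
CPM (vertical axis, from 0) in each tumour for the 4 antagonised induced genes (top) and for 4 repressed genes (bottom), drawn as in the plot of induced genes. In the top row every combination tumour lies below every DMXAA tumour; in the bottom row the combination tumours lie below all vehicle tumours, and no dashes are drawn because the sum falls below 0.

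Some myeloid genes that fell with BO-112 had log2 interactions above 0 that missed the threshold. Ciita, the master regulator of MHC class II, read 55.6, 56.2 and 48.2 CPM with vehicle, 3.54, 3.82, 7.35 and 2.65 with BO-112, 28.1, 22.8, 16.7 and 12.5 with DMXAA and 3.203, 19.4, 9.39 and 14.02 with both agents, with a log2 interaction of 2.71 ± 0.66 (SE, adjusted p = 0.057). Combination tumour 1 sat within the BO-112 range and the other 3 above it. Mrc1, the mannose receptor, read 152, 167 and 441 CPM with vehicle, 29.3, 41.7, 37.8 and 29.2 with BO-112, 104, 190.1, 62.5 and 94.9 with DMXAA and 25.9, 105, 95.8 and 68.2 with both, with a log2 interaction of 2.03 ± 0.64 (SE, adjusted p = 0.148), and combination tumour 1 was again lowest. Cd163, a haemoglobin scavenger receptor, had means of 4.89, 0.184, 1.86 and 0.505 CPM in the order vehicle, BO-112, DMXAA and both, and a log2 interaction of 2.74 ± 0.85 (SE, adjusted p = 0.141), or 1.24 with 1 CPM added. The BO-112 values of Cd163 rest on 1, 5, 1 and 3 reads. The 13 genes of MHC class II had a median of 0.47 and no call, against 1 positive call without DMXAA 2 and DMXAA 3. Of the cell cycle genes, 14 of 28 fell with BO-112, beside 4.31% of all genes, none was called with DMXAA or in the interaction, and the median was 0.06.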

How the data were processed

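Whole tumours were measured by stranded mRNA sequencing with 150 bp reads, per the labels. The submitters' processing notes name STAR, edgeR, limma and the genome build mm39, with no role given; the counter, annotation and low-count filter are not given in the sources used here. The deposited table holds log2 values, the log2 of CPM per gene and sample after the authors' library scaling with 0.5 reads added. That scale was read from the values, which return whole reads for 100% of entries within a tolerance of 1e-06. The other 15 per-sample columns, which carry no sample names, were not used.

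The log2 interaction and the pairwise contrasts were fitted with limma 3.58.1 in R 4.3.3 on the 4 group means, with an intensity trend and robust variances, and p-values were Benjamini-Hochberg adjusted over all 17712 genes at a threshold of 0.05. The linear interaction was fitted with limma on CPM divided by the gene mean, with weights from the group means. All p-values measure the spread between these tumours, which the labels call biological replicates without naming a source animal for each.

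Of 648 listed gene symbols 599 were measured. Genes were named by rule: the 12 lowest and 12 highest called interactions among genes with a regular symbol whose mean CPM was 1 or more, up to 3 members per list with the smallest p and the first in the other direction, and a fixed panel. Others, among them the antagonised genes and the listed members given as examples, were named after their values were seen. The comparison, the lists and the panel were chosen with earlier results of these data known. Promoter sequences are RefSeq's on GRCm38.p6, matched by symbol, while the counts were made on mm39, and no coordinate was carried between the builds. Alternatives were other scalings, a filter on low values, limma-voom on the recovered reads, sample weights, a replicate block, other constants and fits without single or several libraries.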

Additional observations from a re-analysis of the deposited data

Results flagged for a closer look

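The response to DMXAA differed by whether BO-112 was present, by a test of that difference, for 239 genes on the log2 scale (limma, adjusted p under 0.05), 204 with a lower and 35 with a higher level than the product of the fold changes. DMXAA 2 was far from its group, its correlation with the 3 other members having a median of 0.933.

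Among the 60 genes whose values are given per tumour or by group mean, 6 of 180 groups of 4 tumours had 1 tumour far from the other 3, where chance gives about 1 in 20. Combination tumour 4 was low for the monocyte chemokine Ccl2, at 144 CPM, and for the chemerin precursor Rarres2, at 15.4 CPM. The same tumour was high for Il6, at 3.89 CPM. BO-112 2 was high for Ccl12, at 171 CPM, and for the STING gene Tmem173, at 69.5 CPM, and combination tumour 3 was low for Dnm3os, at 43.9 CPM.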

How the results depend on the processing

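The 239 genes called in the log2 interaction became 114 with total-count scaling, 36 without the 4 libraries high in muscle genes, 710 without DMXAA 2 and DMXAA 3, 645 with sample weights and 142 without the intensity trend and robust fit. Leaving out single tumours gave 65 (without vehicle 1) to 456 (without DMXAA 2). The linear interaction, with 0 genes called, gave 287 without DMXAA 2 and DMXAA 3, 130 with no weights, 142 with 5 CPM added in the weights and 34 with an intensity trend in the variance, the last chosen after seeing the data. Leaving out single tumours gave 0 (in 11 of 15 fits) to 72 (without vehicle 2), with 41 without DMXAA 2 and 1 each without DMXAA 1 and DMXAA 4. The 4 antagonised induced genes became 2 with total-count scaling, 0 without the muscle-high libraries, 154 without DMXAA 2 and DMXAA 3, 0 at an adjusted p of 0.01, and 0 (without DMXAA 3, combination tumour 1 or combination tumour 2) to 55 (without DMXAA 4) as single tumours were left out. The cause of these shifts was not tested. No named gene called in the log2 interaction reversed its direction under any alternative run.

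No pairing by replicate number was seen in the values. Same-numbered tumours had a mean correlation of deviations of 0.0152 over 21 pairs, with 5 over 0.1. The 63 other pairs had a mean of -0.0051, with 13 over 0.1. How the tumours were handled cannot be read from these correlations. With the numbers as a replicate block, 283 genes were called in the log2 interaction, 161 in the linear interaction, and 6 induced genes were antagonised.

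The vehicle group of 3 tumours enters every interaction. For genes with a few reads per vehicle tumour, such as Ifnb1 and Cd5l, the log2 interaction depends on the constant added, and their values with 1 CPM added were -1.82 and -1.88.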
